A study of Homo sapiens with 4 samples.

Results

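The early growth response genes EGR1 to EGR4, the nuclear receptor genes NR4A1 to NR4A3, the immediate early genes IER2 and IER5 and the serum response factor gene SRF were examined in A549 cells treated with embelin. Their probes were every non-control probe that carried the name of 1 of the 10 genes or the RefSeq transcript of 1 of them, and these were 20 of the 50238 probes on the array, for 10 of the 30970 gene or transcript names it carries. Of the 20, 10 passed the filter on dim probes (well above background, by the scanner software's flag, on both arrays of at least 1 group), as did 26146 probes in all. These 10 probes stood for 7 genes. EGR2, EGR3 and EGR4 had no probe that passed.

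A549 cells are an established line from a human lung adenocarcinoma. Embelin is a plant benzoquinone with a long alkyl chain. The study compared 2 samples of untreated A549 cells with 2 samples treated with 15 µM embelin, all collected at 4 h and all moved to medium with 2% serum before the treatment. The labels name no vehicle for the controls, and they number the replicates without saying whether these came from separate cultures, so the p-values measure the spread between these samples only, which may be technical. Total RNA of each sample was labelled with Cy3 and hybridized to 1 whole-genome Agilent array. The aim stated by the submitters was to find the pathways behind cell death at this early time, and the comparison of embelin with control addresses which transcripts of these regulators had changed by then.

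Immediate early genes are transcribed without the need for new protein synthesis when a cell meets a growth factor, a stress or a change in serum. At EGR1 and many others, SRF sits on a sequence called the CArG box together with ternary complex factors of the ELK family, which are substrates of the MAP kinases ERK, JNK and p38. A second route runs through CREB family factors and their cAMP response elements, of which NR4A genes are well known targets. The EGR proteins are zinc finger transcription factors, while the NR4A proteins are orphan nuclear receptors that act without a known natural ligand.

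Promoter stretches of EGR1 and NR4A3, whose signals rose most among the 7 genes tested, and of SRF are shown for the elements of these 2 routes that they hold. RefSeq promoter windows on GRCh38.p14, from 250 bases before to 50 bases after the start, were given for 8 of the 10 genes, in 12 windows, and EGR3 and NR4A2 had none. The stretches below are on the strand of the gene, 5′ to 3′, and lie wholly upstream of the start, with capitals for CArG boxes and for the core of the cAMP response element (TGACG, or CGTCA where it is read on the other strand).
EGR1, chr5:138465332-138465429, plus strand, positions -147 to -50 from the start: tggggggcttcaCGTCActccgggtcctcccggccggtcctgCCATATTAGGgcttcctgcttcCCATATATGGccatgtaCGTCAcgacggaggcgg
NR4A3, chr9:99821764-99821876, plus strand, positions -121 to -9: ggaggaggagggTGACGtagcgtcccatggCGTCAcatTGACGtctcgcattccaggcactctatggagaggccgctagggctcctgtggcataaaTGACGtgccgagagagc
SRF, chr6:43171108-43171268, plus strand, positions -161 to -1: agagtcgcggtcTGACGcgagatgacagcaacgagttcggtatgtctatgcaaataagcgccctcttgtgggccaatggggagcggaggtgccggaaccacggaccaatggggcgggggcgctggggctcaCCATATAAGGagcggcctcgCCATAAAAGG

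EGR1 held 2 CArG boxes and 2 copies of TGACG in its window, and NR4A3 held 4 copies of TGACG and no CArG box. The window of SRF from which its stretch comes held 2 CArG boxes and 1 copy of TGACG, and its other window held neither. A CArG box was found in 3 of the 12 windows (that of EGR1, and 1 each of SRF and EGR2) and in 1.293% of all 35116 windows of the table. TGACG was found on either strand in 6 of the 12 windows (EGR1, EGR2, EGR4, NR4A3, IER2 and SRF) and in 24.55% of all windows. Neither window of NR4A1 held any of the 8 motifs searched on both strands. The others were TGACGTCA, which contains TGACG, the EGR sites GCGTGGGCG and GCGGGGGCG, the NR4A site AAAGGTCA, the AP-1 site TGANTCA and the heat shock unit GAANNTTC. Of these, GCGGGGGCG was found in SRF, where it stands uncapitalized at positions -49 to -41, and in 5.072% of all windows. The unit GAANNTTC was found in IER5 at positions -226 to -219, and in 6.769% of all windows. A match describes these letters only, and no binding was measured.

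NR4A1, NR4A3 and IER5 each had a pair of probes, with control and embelin values that lay apart at the first probe and overlapped at the second, and the first 30 of the 60 bases of each are given as the array design lists them, so that they can be told apart.
NR4A1 probe 1: aatgacagattctgacatttatatttgtgt
NR4A1 probe 2: ctcccttgccacccaaatgttagaaaaata
NR4A3 probe 1: gaaatcaggaagccaccagctgttaatgga
NR4A3 probe 2: ttcctgctttcaaatgaatgatcagggtct
IER5 probe 1: atggtgactccagtctttgttgtataaagg
IER5 probe 2: tcgaccccgctcaagaagccccgccggaac
Probes of different genes among the 10 shared no run longer than 9 bases. Of the 13 pairs of probes of the same gene, 1 shared a run of at least 10 bases. That pair was of EGR4 and overlapped by 59 bases. The second probes of NR4A1 and NR4A3 were designed to other RefSeq transcripts of these genes than the first.

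The 4 arrays shared a slide and a scan. On it the controls took positions 1 and 4 and the embelin samples positions 2 and 3. One array of each group had the noisier background. Between 50.3% and 51.2% of probes were well above background on control replicate 2 and embelin replicate 1, against 66.4% to 66.7% on the other pair. No spot was saturated. Signals are given as log2 intensities after each array had been shifted to the same 75th percentile, at which a log2 signal of 9.40 lies. Levels of different probes are not set against each other. The exceptions are the choice of the tested probe of highest mean signal for a listed gene and the sums over marker genes. All 6 epithelial markers tested, keratins 7, 8, 18 and 19, CDH1 and EPCAM, were well above background on all 4 arrays. Neither endothelial marker (PECAM1, CDH5) passed the filter. Of 3 leukocyte markers PTPRC did not pass, while CD14 read 9.39 and 9.68 in the controls and 9.06 and 8.80 with embelin, and CD3E read 5.39 and 4.85 against 7.01 and 5.74, and neither of these was called (adjusted p = 0.268 and 0.309 from limma). Of 4 fibroblast markers COL1A1 alone passed, at log2 signals of 6.38 and 6.27 in the controls and 7.56 and 7.69 with embelin (adjusted p = 0.0661 from limma). The summed intensity of the 4 fibroblast markers was 109 and 116 in the controls and 679 and 228 with embelin. Of these 4, 1 and 1 were well above background in the controls and 2 and 1 with embelin. The sum of the 3 leukocyte markers was 718 and 868 against 854 and 502, with 2 and 1 of them well above background against 3 and 2. Both sums include markers that did not pass the filter. The part of these markers in the results below was not tested.

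The signal of EGR1, NR4A1 and NR4A3 rose with embelin, and no other of the 7 genes that could be tested was called. Limma called 3 of the 10 tested probes higher after Benjamini-Hochberg adjustment over all 26146 probes, where 0.83% of all tested probes were called higher, and it called none lower, where the share was 0.249%. The same 3 were at least 2-fold higher at an unadjusted p below 0.05, against 4.58% of all tested probes, and none was at least 2-fold lower, against 3.77%. With no fold threshold 4 of the 10 had an unadjusted p below 0.05, 3 higher and 1 lower, against 17.9% of all tested probes. The median log2 fold change was 0.39 over the 10 probes and -0.04 over all tested probes. EGR1 and NR4A2 passed the filter through the embelin arrays alone and the first SRF probe through the control arrays alone, so these counts and this median are descriptions of the probes that passed. In a bulk sample more cells that hold a transcript and more of it per cell cannot be told apart. The same holds for fewer such cells and less of it per cell. With any 1 array left out, which leaves 1 array in a group, the calls did not hold, for these genes or for any other probe. The log2 fold changes then ran from 3.26 to 3.76 for EGR1, 2.18 to 2.66 for NR4A1 and 4.07 to 4.45 for NR4A3. With 2 arrays a group the smallest p of a two-sided exact permutation test is 0.333, so the calls rest on the spread that limma shares across probes.

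**Figure D1:**
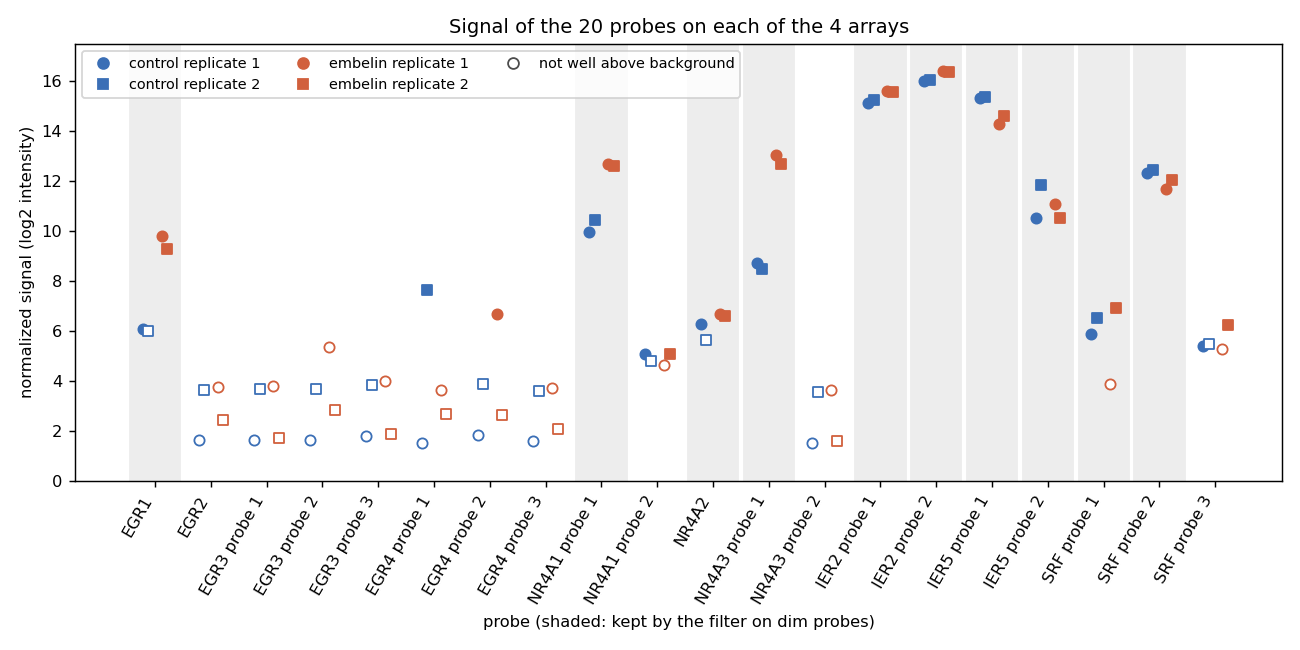
Normalized log2 signal (vertical axis) of each of the 20 probes (horizontal axis) on the 2 control arrays (blue) and the 2 embelin arrays (orange), with open symbols for spots not well above background and shading for the 10 probes that passed the filter. The embelin points of EGR1, NR4A1 probe 1 and NR4A3 probe 1 lie clear of the control points, while the EGR2, EGR3 and most EGR4 points are open symbols at the bottom.

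EGR1 is the best known of the early growth response factors and binds GC-rich promoter sites. Its normalized log2 signal was 6.09 and 5.98 in the controls and 9.79 and 9.30 with embelin. Both embelin values lay more than 3 log2 units above both control values, and the groups did not overlap. The mean went from 6.04 ± 0.08 to 9.55 ± 0.35 (SD, n = 2 each). The rise was 11.4-fold with a 95% interval of 7.21 to 18.0, or 3.51 on the log2 scale with a standard error of 0.24, and limma gave an adjusted p of 0.0285. Only 69 of the 26146 tested probes rose by more. A limit applies on the control side, since EGR1 was well above background on control replicate 1 only. The scanner software put the error of its spot at 22.6% on control replicate 2, against 10.0% to 11.0% on the other arrays. EGR1 thus passed the filter through its embelin arrays alone, and a filter asking for all 4 arrays leaves it out. With normexp background correction the log2 fold change was 2.60, below the log2 interval of 2.85 to 4.17 given by the deposited background correction (adjusted p = 0.0143 from limma, and from 0.00217 to 0.505 over the alternatives with 4 arrays).

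The other 3 EGR genes, which encode related zinc finger proteins, could not be measured at this signal. EGR2, the factor of peripheral myelination and hindbrain patterning, was not well above background on any array, with log2 signals of 1.64 and 3.63 in the controls and 3.77 and 2.45 with embelin. These values followed the background of the arrays, since control replicate 2 and embelin replicate 1 were the higher ones. The 3 probes of EGR3, a factor of lymphocytes and muscle spindles, were likewise not well above background on any array and ranged from 1.64 to 5.36. EGR4, a neuronal member of the family, had 3 probes. The first was well above background on control replicate 2 alone, at 7.64 against 1.51 on control replicate 1 and 3.65 and 2.66 with embelin. The second was well above background on embelin replicate 1 alone, at 6.69 against 2.61 on embelin replicate 2 and 1.81 and 3.88 in the controls. The third, which shares 59 of its 60 bases with the second, stayed at 3.73 on embelin replicate 1 and was not well above background on any array. No fold change is given for these 3 genes, as neither group had a signal above its background on both arrays.

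NR4A3, which encodes the receptor NOR1, rose most of the 7 genes that could be tested. Its first probe had a log2 signal of 8.73 and 8.50 in the controls and 13.07 and 12.69 with embelin, and was well above background on all 4 arrays. The groups were about 4 log2 units apart and each was tight. The log2 fold change was 4.26 with a standard error of 0.23 (adjusted p = 0.0255 from limma), a 19.2-fold rise with a 95% interval of 12.5 to 29.5, and 24 of the 26146 tested probes rose by more. The call was lost with no filter (adjusted p = 0.505 from limma) and with the methods' t-test. It was also lost with the replicate number, the array position or the array background in the fit. The second NR4A3 probe, designed to another transcript, was not well above background on any array, at 1.52 and 3.55 in the controls and 3.64 and 1.57 with embelin. The rise was thus seen with 1 of the 2 probes, and the other gave no signal to test.

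NR4A1, which encodes NUR77, a receptor known both as a transcription factor and for a role at mitochondria in cell death, rose as well. Its first probe read 9.98 and 10.46 in the controls and 12.69 and 12.60 with embelin. Both embelin values lay above both control values, by 2.13 to 2.71 log2 units. The log2 fold change was 2.42 with a standard error of 0.24 (adjusted p = 0.0448 from limma), a 5.35-fold rise with a 95% interval of 3.42 to 8.37, and 1.14% of tested probes rose by more. Its second probe, to another transcript, read 5.08 and 4.80 in the controls and 4.64 and 5.07 with embelin and was well above background on 1 array of each group. It did not pass the filter, and the groups overlapped. In the fit without the filter its log2 fold change was -0.08, with a 95% interval from -0.99 to 0.83. The call of NR4A1 was close to the threshold and held in 4 of 15 alternatives (normexp, all 4 arrays well above background, trend and robust, and 1 probe per gene). Its log2 fold change stayed between 2.34 and 2.44 over the alternatives that kept the 4 arrays.

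NR4A2, which encodes NURR1, a factor of dopamine neurons, was not called. Its log2 signal was 6.28 and 5.62 in the controls, of which only replicate 1 was well above background, and 6.67 and 6.60 with embelin. Both embelin values were above both control values, but the nearest pair differed by less than the 2 controls differed from each other. The log2 fold change of 0.68 had a 95% interval from -0.09 to 1.45 (adjusted p = 0.325 from limma). That interval reaches 2.73-fold at its upper end, so a rise of moderate size in NR4A2 was not detectable here rather than shown to be absent. Its upper end lies below the lower end of the NR4A3 interval, but the probes were not tested against each other.

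**Figure D2:**
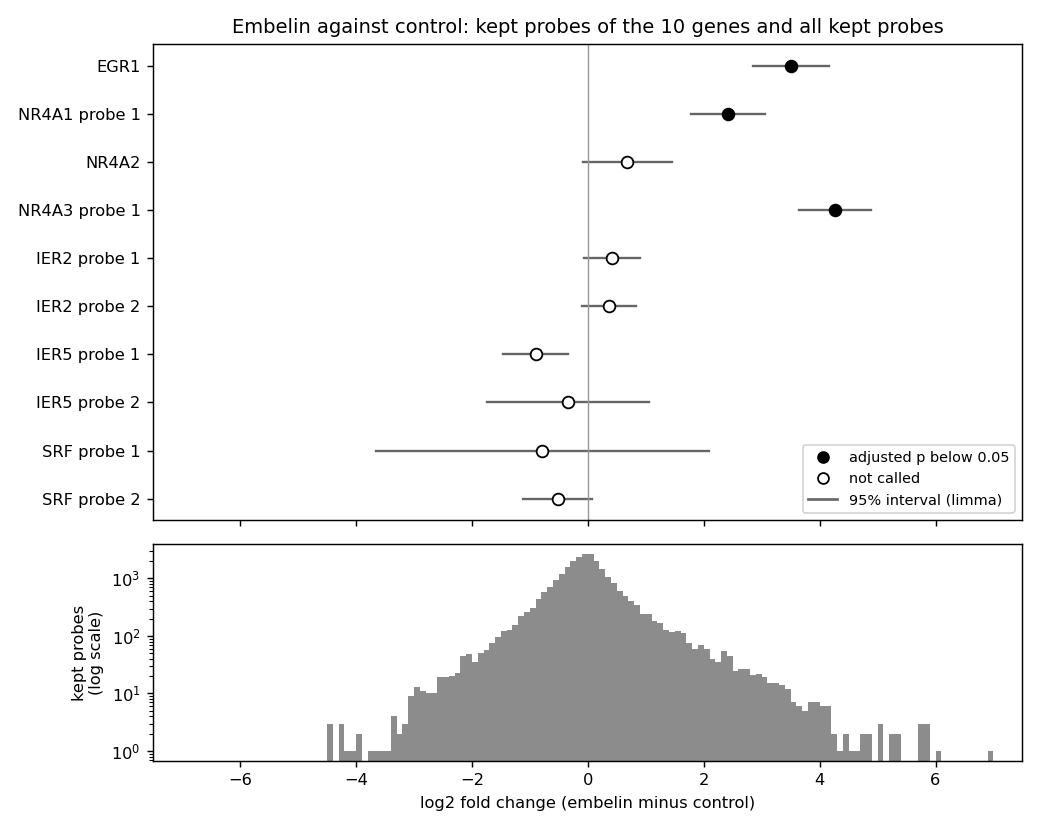
Top, log2 fold change (embelin minus control, horizontal axis) of the 10 tested probes with limma's 95% intervals, with filled circles for an adjusted p below 0.05. Bottom, the number of tested probes at each log2 fold change on a log scale. EGR1 (3.51), NR4A1 probe 1 (2.42) and NR4A3 probe 1 (4.26) lie in the right tail of all probes, while the intervals of NR4A2, both IER2 probes, IER5 probe 2 and both SRF probes cross 0.

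IER2 and IER5 belong to a small family of nuclear proteins with a shared N-terminal domain, and IER5 is also known as a partner of heat shock factor HSF1. The 2 probes of IER2 gave like values of change. The first read 15.13 and 15.25 in the controls and 15.62 and 15.58 with embelin, and the second 16.00 and 16.07 against 16.43 and 16.37. At both probes the embelin values lay just above the control values without overlap, which was the case in this direction for 21.0% of all tested probes. The log2 fold changes were 0.41 (95% interval -0.07 to 0.89) and 0.37 (95% interval -0.11 to 0.84), and neither was called (adjusted p = 0.334 and 0.376 from limma). A rise of IER2 above 1.86-fold lies outside both intervals.

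IER5 was the only gene among the 10 whose probe passed an unadjusted p below 0.05 on the lower side. Its first probe read 15.33 and 15.37 in the controls and 14.28 and 14.61 with embelin. Both embelin values lay below both control values, as they did for 27.7% of all tested probes. The log2 fold change was -0.90 (95% interval -1.46 to -0.34), or 1.87-fold lower, with an unadjusted p of 0.0103 and an adjusted p of 0.141 from limma, so that it was not called. With limma's trend and robust options the same difference was called (adjusted p = 0.0247), and over all alternatives with 4 arrays the adjusted p ran up to 0.809. The second IER5 probe read 10.51 and 11.83 in the controls and 11.10 and 10.54 with embelin. Its groups overlapped, and its log2 fold change of -0.35 had a 95% interval from -1.75 to 1.05. Without control replicate 2 that value turned to 0.31. The second probe has a GC content of 66.7% against 41.7% for the first, and whether this has a part in their difference was not tested.

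SRF encodes the factor that binds CArG boxes at many immediate early genes and cytoskeletal genes. Its second probe read 12.31 and 12.47 in the controls and 11.68 and 12.05 with embelin. The embelin values were the lower ones without overlap, as they were for 27.7% of all tested probes. The log2 fold change of -0.52 had a 95% interval from -1.12 to 0.07 (adjusted p = 0.327 from limma). Its first probe varied widely with embelin. It read 5.86 and 6.50 in the controls and 3.89 and 6.91 with embelin, and was not well above background at its lowest value. Its log2 fold change was -0.78 with a standard error of 1.06 (adjusted p = 0.770 from limma), and without embelin replicate 1 it became 0.73. The third probe did not pass the filter, with signals of 5.42 and 5.46 in the controls and 5.29 and 6.24 with embelin. Thus the transcript of SRF itself was not called in either direction.

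Because 1 array of each group had the noisier background, the difference was also taken within each pair of arrays with a like background. For EGR1 it was 3.20 log2 units in the pair with the lower background (embelin replicate 2 minus control replicate 1) and 3.81 in the pair with the higher background. For NR4A3 it was 3.96 and 4.57, and for NR4A1 it was 2.61 and 2.23. The 3 genes were higher with embelin in both pairs, and in EGR1 and NR4A3 the larger value came from the noisier pair. NR4A2 differed by 0.32 and 1.05. The first IER2 probe differed by 0.46 and 0.37, and the first IER5 probe by -0.71 and -1.09. The second IER5 probe differed by 0.03 and -0.73, and the first SRF probe by 1.04 and -2.61, so that their sign depended on the pair. The second SRF probe was lower in both pairs, by -0.26 and -0.79. With 1 array on each side these pairs carry no test. When the background of the arrays was put into limma's fit as a block, 0 of the 10 probes were called. That fit, chosen after the values were seen, called 0 of all tested probes, so its count is not particular to these genes.

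**Figure D3:**
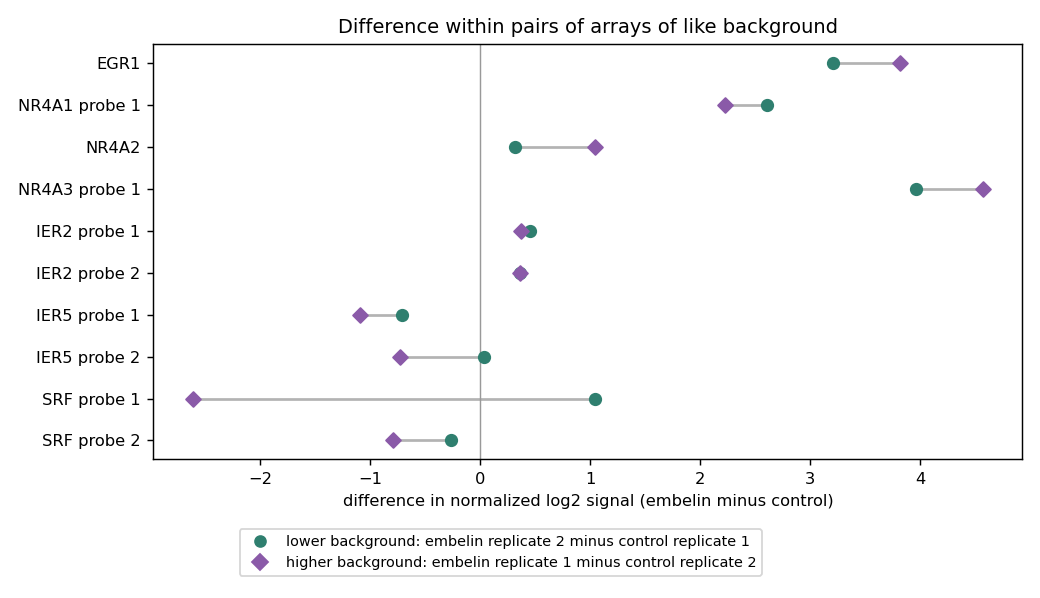
Difference in normalized log2 signal, embelin minus control (horizontal axis), of the 10 tested probes within the pair of arrays of lower background (green circles) and within the pair of higher background (purple diamonds). EGR1, NR4A1 probe 1 and NR4A3 probe 1 lie above 2 in both pairs, and the first SRF probe changes sign between them, from 1.04 to -2.61.

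Genes that work with these factors were followed as a list of 11 co-repressors and partners, of which 9 passed the filter, each gene represented by its tested probe of highest mean signal. Only NAB2 was called, on the higher side, where 0.83% of all tested probes were called higher and 0.249% lower. Without adjustment 5 of the 9 had a p below 0.05 from limma, against 17.9% of all tested probes. NAB2 and NAB1 encode co-repressors that bind EGR1, and NAB2 is itself known to be induced by EGR1. NAB2 had a log2 signal of 9.24 and 9.73 in the controls and 11.86 and 12.12 with embelin, so that the groups lay about 2 log2 units apart. Its log2 fold change was 2.51 with a standard error of 0.26 (adjusted p = 0.0463 from limma), and its other tested probe was at 2.38. NAB1 read 9.34 and 9.02 in the controls and 9.86 and 9.68 with embelin, and its log2 fold change of 0.59 was not called (adjusted p = 0.272 from limma). As with NR4A1, the call of NAB2 lay near the threshold. It held in the same 4 alternatives and was lost in all others, each array left out included.

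The retinoid X receptors form heterodimers with NR4A1 and NR4A2. RXRA was lower on both embelin arrays at the probe that stands for it and had a log2 fold change of -0.61 (adjusted p = 0.287 from limma), while its other tested probe was at 0.37, so its direction depended on the probe. RXRB was at 0.03 with both groups spread over 0.6 log2 units, and RXRG did not pass the filter. None of the retinoid X receptor genes was called.

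Among the partners of SRF, ELK3, a ternary complex factor that can repress, read 7.16 and 7.22 in the controls and 9.24 and 8.17 with embelin. Both embelin values were higher by about 1 log2 unit or more, but they differed widely from each other. Its log2 fold change of 1.52 was not called (adjusted p = 0.177 from limma). ELK1 was at 0.33 and ELK4 at 0.29, both within the spread of their arrays. The genes of the actin-regulated cofactors were on the lower side, MRTFA at -0.53 (adjusted p = 0.279 from limma) and MRTFB at -0.68 (adjusted p = 0.199 from limma). In both cases the groups did not overlap, as in this direction for 27.7% of all tested probes. Neither was called, and MYOCD, a cofactor of heart and smooth muscle, did not pass the filter. The median over the 9 genes was 0.29.

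Genes known as EGR1 targets, 12 of 12 of which passed the filter, showed log2 fold changes with a median of 1.10, against -0.04 over all tested probes, and 3 of them were called higher and none lower, against 0.83% and 0.249% of all tested probes. The list shares NAB1 and NAB2 with the partners. F3 passed the filter through the embelin arrays alone, with log2 signals of 5.11 and 3.59 in the controls and 8.02 and 8.24 with embelin. The counts and the median are thus descriptions of the genes that passed. PDGFB, a platelet-derived growth factor chain, read 6.58 and 6.45 in the controls and 10.30 and 10.61 with embelin, a log2 fold change of 3.94 (adjusted p = 0.0255 from limma). VEGFA, the vascular growth factor, read 8.77 and 8.33 against 12.49 and 11.87, a log2 fold change of 3.63 (adjusted p = 0.0344 from limma). At both genes the controls and the embelin samples lay more than 3 log2 units apart. The least change was in TGFB1, a growth factor of the transforming growth factor family, at 0.07. Most of these genes have other known regulators too, and what drove them was not measured.

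Of 30 other immediate early genes, 29 passed the filter, 8 were called higher and none lower, against 0.83% and 0.249% of all tested probes, and 21 were at least 2-fold higher at an unadjusted p below 0.05, against 4.58%. Their median log2 fold change was 1.53, also when FOSB, which was not well above background in the controls, was put at its bound. FOSB and DUSP2 passed the filter through the embelin arrays alone, so these counts and this median are descriptions of the genes that passed. The 6 largest of the called ones were the stress factor ATF3 (5.71), the Kruppel-like factor genes KLF2 (3.85, with another tested probe at 1.46) and KLF6 (2.80), the small GTPase gene RHOB (3.38), the phosphatase gene DUSP5 (2.72) and the AP-1 subunit gene FOS (2.43). EGR1 (3.51) and NR4A3 (4.26) lay within the range of these values and NR4A1 (2.42) just under it. Log2 fold changes were negative in 4 genes, named after their values were seen, which were MYC (-0.31), IER5L (-0.28), DUSP6 (-0.43) and CCN1 (-0.79). None of the 4 was called. CCN2, a connective tissue growth factor gene, changed least, at 0.05.

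Lists were also read for transcripts of the CREB pathway and of cytoskeletal targets of SRF. Of 11 genes of the CREB pathway (the CREB family, its CRTC co-activators, CREBBP and known targets), all 11 passed the filter. Limma called 0 of them after adjustment, where 0.83% of all tested probes were called higher and 0.249% lower. The median log2 fold change of the 11 genes was 0.19. Without adjustment 4 of the 11 had a p below 0.05, against 17.9% of all tested probes, and none of these 4 was at least 2-fold changed. These were CREM (0.65), PDE4B (-0.80), PDE4D (0.74) and PER1 (0.57), named after their values were seen. CREM and PDE4D each had 4 tested probes, and the size of change depended on the probe. Their other probes ran from 0.16 to 0.76 for CREM and from 0.18 to 0.47 for PDE4D. The other tested probe of PDE4B was at -0.75. The largest change of the list was in CREB1, likewise named afterwards, at 1.47. It read 8.08 and 7.73 in the controls and a widely spread 10.46 and 8.30 with embelin, and was not called (adjusted p = 0.409 from limma). CRTC3 changed least, at -0.01. Of 16 cytoskeletal genes known as targets of SRF and the MRTF cofactors, 14 passed the filter, with a median of 0.10. Limma called 0 of the 14 after adjustment, against the same 0.83% and 0.249% of all tested probes. Without adjustment 3 of the 14 had a p below 0.05, a share near the 17.9% of all tested probes, and these too were named after their values were seen. The smooth muscle gene CNN1, at 1.42 (adjusted p = 0.0632 from limma), was the only one of them at least 2-fold higher, and the others were TPM4 (0.49) and TGFB1I1 (0.65). CNN1 was called in 3 of the alternatives (normexp, all 4 arrays well above background, and trend and robust). The actin gene ACTB was at 0.01. The transcripts called among the 10 genes and in these lists were all higher with embelin. They lay among immediate early and EGR1 target genes and, for NAB2, also among the partners. None lay among the cytoskeletal targets of SRF or the CREB pathway. At the share called over all tested probes, 0 calls in lists this short do not set them apart from other genes. The lists were not tested against each other. EGR1 and the NR4A genes, named above for the 2 routes, were counted among the 10 genes and not in the CREB and cytoskeletal lists. Those lists thus do not show whether either route was active, which was not measured.

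**Figure D4:**
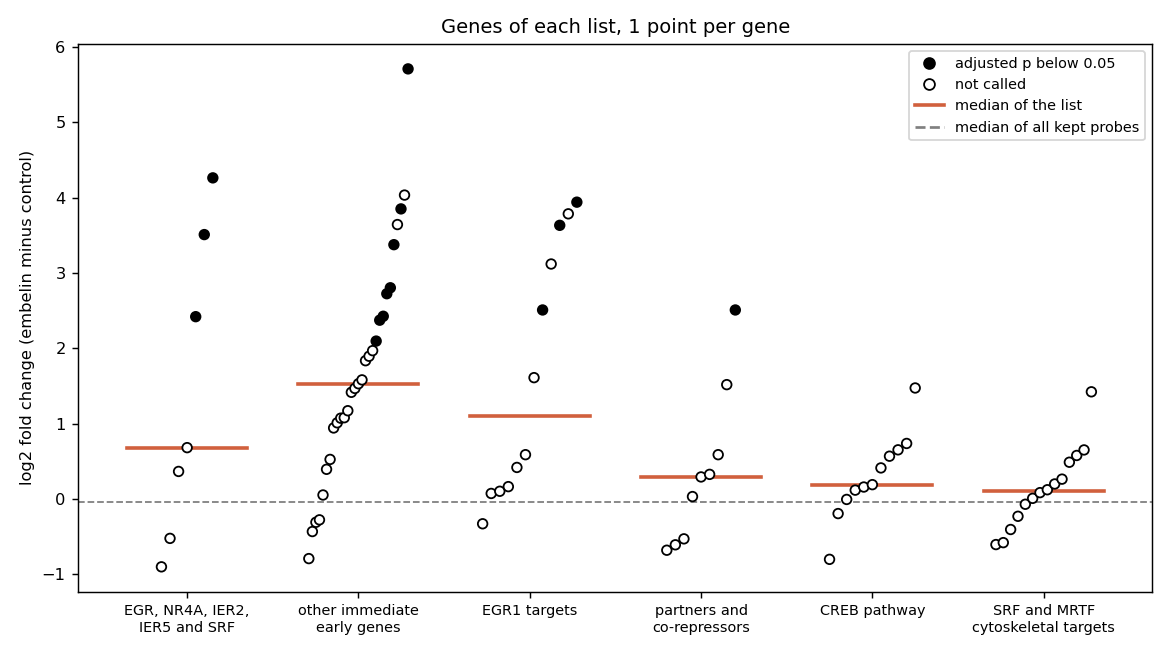
Log2 fold change (embelin minus control, vertical axis) of each gene that passed the filter, 1 point per gene from its tested probe of highest mean signal, in 6 lists (horizontal axis), with filled circles for an adjusted p below 0.05, an orange bar for the list median and a dashed line for the median of all tested probes. The medians run from 1.53 for the other immediate early genes and 1.10 for the EGR1 targets to 0.10 for the cytoskeletal targets of SRF and MRTF. EGR1, NR4A2, FOSB, DUSP2 and F3 passed the filter through the embelin arrays alone.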

How the data were processed

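Per the labels, total RNA from A549 cells was amplified with an oligo-dT primer and labelled with Cy3. The authors deposited single-colour intensities from Agilent Feature Extraction (version 10.7.3.1 per the file headers), background-subtracted and detrended, with surrogates for spots at background level, and not normalized between arrays. Per the file headers the array design was annotated on hg18, from which no coordinate was taken. Their methods give the 75th percentile shift as normalization, and call genes at 2-fold with Student's t-test.

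Here intensities were scaled to equal 75th percentiles (601 to 739 before and 675 after), given a floor of 1 and log2-transformed. Control spots and spots marked as outliers were left out, and each of the 20 probes had 1 spot on each array. Of 50238 probes, 28595 were named through their RefSeq accession and 2342 through another probe. The 26146 probes well above background on both arrays of a group were fitted in R 4.3.3 with limma 3.58.1, embelin against control, with Benjamini-Hochberg adjustment over all of them (called below 0.05). The fit, tested on simulated data first, had a prior of 2.31 degrees of freedom and a prior SD of 0.235, and the median pooled SD was 0.228. The number of arrays limits the precision.

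The genes, lists, tests and alternatives were chosen with earlier results of these data known. Named were all probes of the 10 genes, all tested partners and, from each other list, the called genes (at most 6) and the gene that changed least. Alternatives were normexp (offset 50), the deposited table of probe values (intensities averaged over spots by the authors, shifted likewise), quantile normalization, no filter on dim probes, all 4 arrays well above background, the methods' t-test, limma's trend and robust options, the replicate number as a block, 1 probe per gene, array position as a covariate, each array left out and, added after the values were seen, array background as a block.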

Additional observations from a re-analysis of the deposited data

How the results depend on the processing

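The number of probes called by limma was 282 and became 819 with normexp, 158 with the deposited table, 768 when all 4 arrays had to be well above background and 1296 with trend and robust. The number among the 10 tested probes of the EGR, NR4A, IER and SRF genes was 3, then 3 with normexp, 2 with the deposited table or quantile normalization, 2 with all 4 arrays (EGR1 is left out there) and 4 with trend and robust (IER5 added). The number among the listed genes was 11, and was 21 with normexp, 7 with the deposited table, 20 with all 4 arrays and 26 with trend and robust. All 3 counts were 0 with no filter, the methods' t-test, position on the slide as a covariate and the array background as a block, and 0 to 0 with each array left out.

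With the replicate number as a block all 3 counts were also 0. The difference of replicate 1 from replicate 2 in the controls and that in the embelin samples had a correlation of 0.214 over 25631 probes. The noisier arrays carried different numbers, so this value cannot settle whether samples of the same number belong together. They were taken to share only a number. In all these fits EGR1, NR4A1 and NR4A3 stayed higher with embelin. Their log2 fold changes ran from 2.60 to 3.76 for EGR1, 2.18 to 2.66 for NR4A1 and 4.06 to 4.45 for NR4A3, and the lowest adjusted p with an array left out was 0.0628, for NR4A3.

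Directions turned only at values that were not called. With each array left out in turn, IER5 probe 2 ran from -1.01 to 0.31 (turned without control replicate 2), SRF probe 1 from -2.29 to 0.73 (without embelin replicate 1), RXRB from -0.29 to 0.35, ELK1 from -0.17 to 0.82, CCN2 from -0.18 to 0.29 (each without control replicate 1 or embelin replicate 2), TGFB1 from -0.16 to 0.31 (without embelin replicate 2), CRTC3 from -0.29 to 0.28 (without control replicate 2 or embelin replicate 1) and ACTB from -0.13 to 0.15 (without control replicate 1 or embelin replicate 1). CRTC3 was also at 0.000966 with normexp and 0.030 with quantile normalization, and ACTB at -0.010 with normexp, -0.12 with quantile normalization and -0.000791 with the deposited table. The cause of these differences was not tested.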
